A study of Mus musculus with 45 samples.

Results

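The genes that write, copy and erase 5-methylcytosine in mouse DNA were followed in RNA-seq libraries of pre-implantation embryos and of embryonic stem (ES) cells, with and without acute degradation of GABPA, a transcription factor of the ETS family. The members are 8 genes chosen by their symbols, *Dnmt1*, *Uhrf1*, *Dnmt3a*, *Dnmt3b*, *Dnmt3l*, *Tet1*, *Tet2* and *Tet3*, out of 55385 genes listed in each library. All 18 RNA libraries carried the Gabpa-dTAG/dTAG genotype, in which both copies of *Gabpa* encode a protein with a degradation tag, and they differed in whether dTAG13, the molecule that sends the tagged protein for degradation, or its solvent DMSO was added. The controls therefore carry the tag too.

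Late 2-cell embryos (3 DMSO and 3 dTAG13 libraries) were kept with 1 µM dTAG13 from 6 to 30 hours post-fertilization. Morulae (2 and 2) received 1 µM dTAG13 from 42 hours post-fertilization. The inner cell mass of E4.5 blastocysts (E4.5 ICM, 2 and 2) was isolated by immunosurgery after 1 µM from 84 to 100 hours post-fertilization and is a mixture of epiblast and primitive endoderm. ES cells in 2i/LIF medium (2iES, 2 and 2) were of the edited E14 line, from which single clones had been picked, and received 0.5 µM for 24 hours. Embryos were made by in vitro fertilization from mice that had been crossed back to C57BL/6J. The study's methods call the replicates biological ones, and the labels do not say which libraries shared a collection.

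DNMT1 is the maintenance methyltransferase, which copies methylation onto the new strand after replication, and UHRF1 is the partner that recognizes half-methylated DNA and recruits it. DNMT3A and DNMT3B place methylation at new sites, and DNMT3L is a related protein without catalytic activity that stimulates them. TET1, TET2 and TET3 oxidize 5-methylcytosine, the first step of its active removal. Pre-implantation development is the period in which most gamete-derived methylation is lost, after which the epiblast is methylated again, and ES cells in 2i/LIF are known for low methylation.

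Total expected counts were 9457933 to 12382705 in the 4 morula libraries and 18266057 to 27660132 in the other 14. *Gabpa* mRNA itself was higher with dTAG13 at late 2-cell, E4.5 ICM and 2iES, with log2 fold changes of 0.52, 0.95 and 0.93. Its log2 fold change in morulae was 0.74 (adjusted p = 0.152). The tag acts on the protein, so this mRNA does not check the labels. Defining markers matched the labelled stages, with all 7 markers of the 2-cell embryo over 1 TPM in every late 2-cell library and all 8 epiblast markers in every DMSO library of the E4.5 ICM and 2iES groups. TPM, a measure of transcript abundance, divides reads by transcript length and by the library's total. Among members, the share of exonic bases that lie in another gene was at most 2.24% (*Dnmt3l*, with *Aire* on the opposite strand), and the libraries did not keep strand.

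Start sites of the members were read for the ETS core, since GABPA is an ETS factor. The 15 windows that RefSeq gives for the 8 genes (GRCm38.p6, 250 bases before to 50 after each start) held no CCGGAAG on either strand, a match that 8.86% of all 32851 such windows carry. After that result, the shorter letters CCGGAA and CGGAA, which lie within it, were searched on both strands as well. CCGGAA, held by 14.9% of all windows, was found in 1 member window, of *Uhrf1*. CGGAA, held by 29.9% of all windows, was found in 4 member windows, of *Dnmt1*, *Uhrf1*, *Dnmt3l* and *Tet1*. A window with a match is printed for *Uhrf1* and for *Dnmt1*, the maintenance genes, which both fell with dTAG13 in E4.5 ICM and 2iES. The other listed starts of these genes hold no match. *Dnmt3b* was also called lower at both stages (log2 fold changes of -0.52 and -0.70), and its window holds no match. *Dnmt3l* was called lower at both as well (-0.09 and -0.51). The printed windows were thus selected and do not link the letters to a fall. The capitals mark CGGAA or its reverse complement TTCCG. *Uhrf1* is shown at its downstream start (chr17:56304063-56304362, plus strand), with matches at positions -78 and 16 from the start, and *Dnmt1* at its innermost listed start (chr9:20952574-20952873, minus strand), with a match at position -227. A match describes the letters and is not evidence of binding.
Uhrf1: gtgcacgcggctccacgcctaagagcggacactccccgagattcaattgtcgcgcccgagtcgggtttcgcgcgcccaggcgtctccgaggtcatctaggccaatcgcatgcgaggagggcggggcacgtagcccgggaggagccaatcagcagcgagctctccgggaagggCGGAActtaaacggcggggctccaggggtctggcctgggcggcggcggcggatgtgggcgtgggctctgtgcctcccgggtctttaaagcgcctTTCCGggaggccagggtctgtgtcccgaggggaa
Dnmt1: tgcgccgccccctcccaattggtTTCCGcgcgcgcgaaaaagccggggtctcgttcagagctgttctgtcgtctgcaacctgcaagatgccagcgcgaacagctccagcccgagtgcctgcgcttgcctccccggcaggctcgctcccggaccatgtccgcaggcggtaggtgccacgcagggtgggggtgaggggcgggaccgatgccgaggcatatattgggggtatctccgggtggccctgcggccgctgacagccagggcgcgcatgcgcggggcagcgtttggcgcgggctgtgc

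The 2 maintenance genes had separate courses in DMSO embryos. *Uhrf1* was at 3.44, 3.20 and 3.55 TPM in the late 2-cell libraries, 12.5 and 11.5 in morula, 40.8 and 40.2 in E4.5 ICM, and 21.6 and 22.0 in 2iES. No 2 of these groups overlapped in TPM, and E4.5 ICM stood highest. On counts in edgeR, 2iES against E4.5 ICM was not called for *Uhrf1* (log2 fold change -0.28 ± 0.15 SE, adjusted p = 0.155). The log2 ratio of mean TPM plus 0.1 was -0.89. *Dnmt1* was at 13.8, 8.49 and 10.0 TPM in late 2-cell, 9.65 and 9.16 in morula, 17.0 and 17.6 in E4.5 ICM, and 21.6 and 21.4 in 2iES. Late 2-cell and morula overlapped, and 2iES stood highest in TPM. On counts, *Dnmt1* in 2iES was not called against E4.5 ICM either (0.47 ± 0.18 SE, adjusted p = 0.055). The ratio of *Uhrf1* to *Dnmt1* TPM accordingly went from 0.249 to 0.377 in late 2-cell to 1.25 and 1.29 in morula and to 2.29 and 2.40 in E4.5 ICM, and was 0.998 and 1.03 in 2iES.

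**Figure D1:**
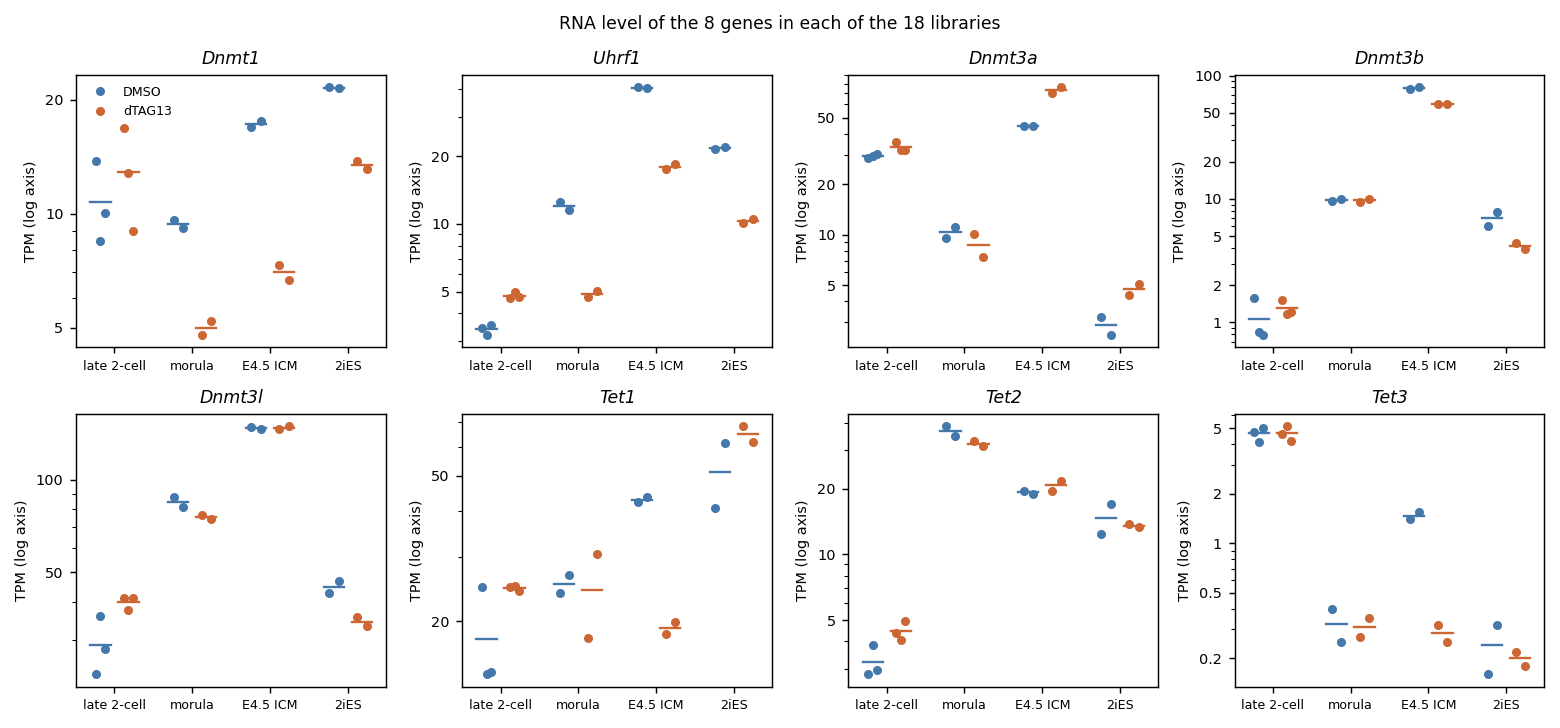
RNA level (TPM, logarithmic axis, a separate range in each panel) of the 8 genes in each library by stage, DMSO in blue and dTAG13 in orange; each point is 1 library and each short line the mean of its group. *Uhrf1* with dTAG13 lay below DMSO in morula, E4.5 ICM and 2iES (4.72 to 18.5 against 11.5 to 40.8 TPM) and *Tet1* in E4.5 ICM (18.5 and 19.9 against 42.4 and 43.7).

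The de novo genes peaked together in the E4.5 ICM. *Dnmt3b*, the main de novo enzyme of the epiblast, was at 1.59, 0.83 and 0.79 TPM in late 2-cell, 9.70 and 10.0 in morula, 78.5 and 80.8 in E4.5 ICM and 6.08 and 7.84 in 2iES. *Dnmt3a*, which oocytes also carry, was at 28.9, 29.7 and 30.4 TPM in late 2-cell, 9.54 and 11.2 in morula, 44.9 and 44.7 in E4.5 ICM, and 3.24 and 2.52 in 2iES. Its late 2-cell level thus stood above morula and 2iES without overlap. *Dnmt3l* ran from 23.2, 35.8 and 28.0 TPM in late 2-cell through 87.7 and 81.5 in morula to 148 and 146 in E4.5 ICM, the highest level of any member at any stage in DMSO, and was at 42.7 and 46.8 in 2iES. The ratio of *Dnmt3b* to *Dnmt3a* TPM was 0.026 to 0.055 in late 2-cell, 0.895 and 1.02 in morula, 1.75 and 1.81 in E4.5 ICM, and 1.88 and 3.11 in 2iES.

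The 3 TET genes each had a different stage of highest level. *Tet3*, the form that oocytes and zygotes carry, was at 4.15, 4.77 and 5.04 TPM in late 2-cell and at 0.16 to 1.54 in every later DMSO library. *Tet2* was at 2.83, 3.85 and 2.95 TPM in late 2-cell and at its highest in morula (38.6 and 34.6), with 19.5 and 19.0 in E4.5 ICM and 12.4 and 17.0 in 2iES. *Tet1* was at 24.8, 14.3 and 14.5 TPM in late 2-cell, 23.9 and 26.8 in morula, 42.4 and 43.7 in E4.5 ICM, and 40.8 and 61.5 in 2iES. Late 2-cell overlapped morula and E4.5 ICM overlapped 2iES, so the order of *Tet1* within those pairs is not resolved.

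These stage differences were tested on counts over all genes in 1 fit of the 9 DMSO libraries. From late 2-cell to morula, 4 of the 8 members rose (*Uhrf1*, *Dnmt3b*, *Dnmt3l* and *Tet2*) and 1 fell (*Tet3*) at an adjusted p under 0.05, against 69.3% of all tested genes called in this comparison. From morula to E4.5 ICM, 6 rose, 1 fell (*Tet2*, log2 fold change -1.04 ± 0.25 SE) and *Tet3* was not past the threshold, against 45.7% of all tested genes. Of these rises, that of *Tet1* (1.14 ± 0.22) was lost in 2 of the 14 alternative settings run. Between E4.5 ICM and 2iES, 4 were lower in 2iES (*Dnmt3a*, *Dnmt3b*, *Dnmt3l* and *Tet3*) and none was higher, against 42.6% of all tested genes. On counts, *Tet2* rose between late 2-cell and morula by 5.47 ± 0.27 (SE) on the log2 scale. *Dnmt3b* rose by 3.36 ± 0.25 and then by a further 2.77 ± 0.27, and in 2iES it differed from E4.5 ICM by -2.85 ± 0.27.

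The size of some of these changes depends on transcript length, because RSEM, the authors' quantifier, weights a gene's length by the isoforms it assigns. For *Tet2* in late 2-cell it assigned short transcripts, with a weighted length of 1001, 1049 and 1877 bases in the DMSO libraries, against 3623 to 4569 in the later ones. Its annotated transcripts run from 423 to 9179 bases. The *Tet2* rise into morula is therefore 5.47 on counts and 3.47 as a log2 ratio of mean TPM. *Dnmt3a* shows the same in the other direction, with no call between late 2-cell and morula on counts (log2 fold change -0.39 ± 0.16, adjusted p = 0.0511) and a log2 ratio of mean TPM of -1.51, its weighted length being 1644 to 1917 bases in late 2-cell and 2640 and 3599 in morula. The missing call on counts is borderline, since this fall passed in 7 of the 15 alternative settings run. *Dnmt3l* lengths were 1226 to 1304 bases in the DMSO libraries of late 2-cell and morula and 1550 to 1625 in those of E4.5 ICM and 2iES.

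**Figure D2:**
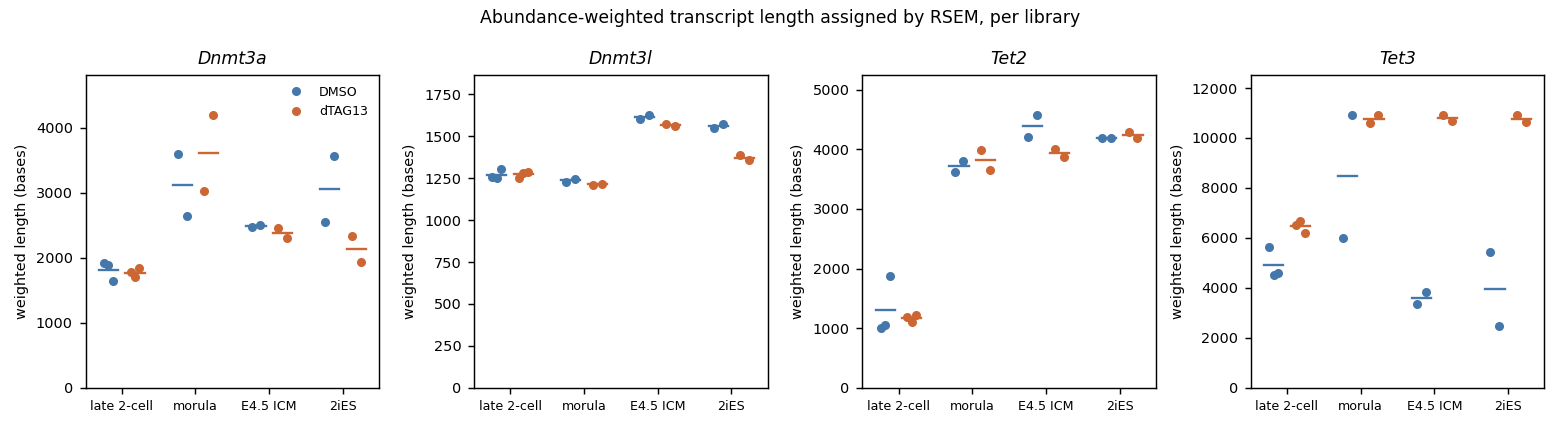
Abundance-weighted transcript length (bases) that RSEM assigned to *Dnmt3a*, *Dnmt3l*, *Tet2* and *Tet3* in each library, DMSO in blue and dTAG13 in orange; each point is 1 library and each line a group mean. *Tet3* in E4.5 ICM went from 3349 and 3846 bases in DMSO to 10904 and 10683 with dTAG13.

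GABPA degradation was then compared with DMSO within each stage. At late 2-cell, none of the 8 members passed an adjusted p of 0.05, where 8.56% of all tested genes did. 1 member had an unadjusted p under 0.05, and DESeq2 also called none. That member was *Uhrf1*, at 4.67, 4.98 and 4.72 TPM with dTAG13 against 3.20 to 3.55 in DMSO, with no overlap and a log2 fold change of 0.43 ± 0.18 (SE, adjusted p = 0.189). With all 18 libraries in 1 fit, it passed at 0.42 (adjusted p = 0.0211). The median log2 fold change of the members was 0.23, against 0.02 over all tested genes. The oocyte markers stood at a summed 1731 to 1967 TPM with dTAG13 against 1364 to 1380 in DMSO. *Oosp1* gave most of that difference, at a mean of 1573 TPM against 1175. It was the 1 of 6 oocyte markers called higher (log2 fold change 0.39, adjusted p = 0.0201), and 0 were called lower. The part of these markers in the members' values was not tested.

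In morula, *Uhrf1* was the 1 member of 8 that fell, among 0.366% of all tested genes called and 0.205% called lower. *Uhrf1* was at 4.72 and 5.03 TPM with dTAG13 against 12.5 and 11.5 in DMSO. Its counts were 2.46-fold lower, a log2 fold change of -1.30 ± 0.22 (SE, adjusted p = 0.021). The other maintenance gene, *Dnmt1*, was at 4.78 and 5.20 TPM against 9.65 and 9.16, also without overlap, but its log2 fold change of -0.80 ± 0.25 did not pass (adjusted p = 0.201). The remaining 6 members had log2 fold changes of -0.19 to 0.42, with adjusted p of 0.709 or more. Without dTAG13 replicate 1 the log2 fold change of *Uhrf1* was -1.20. On log2(TPM + 1) in limma that of *Uhrf1* was -1.14 and its call was lost (adjusted p = 0.206).

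In the E4.5 ICM, the maintenance genes and *Tet1* fell to less than 50% of DMSO. *Dnmt1* was at 7.34 and 6.69 TPM with dTAG13 against 17.0 and 17.6, a log2 fold change of -1.34 ± 0.07 (SE, adjusted p = 8.16e-20). *Uhrf1* was at 17.5 and 18.5 TPM against 40.8 and 40.2, a log2 fold change of -1.23 ± 0.04 (adjusted p = 3.34e-25). *Tet1* was at 18.5 and 19.9 TPM against 42.4 and 43.7, a log2 fold change of -1.11 ± 0.04 (adjusted p = 1.13e-23). The groups of these 3 genes did not overlap. They are the members that also met the study's cut-offs, a change of at least 2-fold and a mean FPKM of at least 1, which 25.3% of all tested genes met.

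The de novo genes of the E4.5 ICM moved in opposite directions. *Dnmt3a* rose from 44.9 and 44.7 to 70.0 and 76.4 TPM (log2 fold change 0.60 ± 0.04, SE), while *Dnmt3b* fell from 78.5 and 80.8 to 58.4 and 58.9 (-0.52 ± 0.03). The *Dnmt3b* to *Dnmt3a* ratio of TPM was thus 0.834 and 0.772 with dTAG13 against 1.75 and 1.81 in DMSO. *Dnmt3l* was at 146 and 149 TPM against 148 and 146, overlapping, and *Tet2* at 19.6 and 21.8 against 19.5 and 19.0. Both were called lower on counts, by -0.09 ± 0.03 and -0.10 ± 0.05, and both reached 0 or above with upper-quartile scaling or on TPM.

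*Tet3* differed between counts and TPM. Its expected counts in E4.5 ICM were 69 and 54 with dTAG13 against 102 and 117 (log2 fold change -0.79 ± 0.21, SE, adjusted p = 0.000801), while its TPM was 0.32 and 0.25 against 1.41 and 1.54, a log2 ratio of mean TPM plus 0.1 of -2.03. The weighted length was 10904 and 10683 bases with dTAG13 against 3349 and 3846 in DMSO. The longest annotated *Tet3* transcript is 10904 bases, so with dTAG13 nearly all of the abundance was assigned to it, while in DMSO a part was assigned to shorter transcripts.

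All 8 members passed an adjusted p of 0.05 in the E4.5 ICM, 7 lower and 1 higher, where 76.9% of all tested genes passed, and their median log2 fold change was -0.66, against 0.01 over all tested genes. The replicates of this stage lay closer together than those of the others, with a common biological coefficient of variation of 0.0237 against 0.159 to 0.284 at the other stages. The SE and adjusted p of this stage are measured against that small spread. The labels do not say whether these libraries came from separate embryo collections, so they may hold little of the spread between collections. With all 18 libraries in 1 fit, 5 of the 8 passed (*Dnmt1*, *Uhrf1*, *Dnmt3a*, *Tet1* and *Tet3*), and *Dnmt3b* had an adjusted p of 0.0704. The cell markers moved at the same time. All 8 epiblast markers fell, from a summed 591 to 603 TPM to 247 to 256, while the primitive endoderm sum was 754 to 757 against 375 to 377 and the trophectoderm sum over 7 markers was 788 to 790 against 83.5 to 87.4. Of the 7 primitive endoderm markers, 4 rose, 2 fell (*Sox17* and *Sox7*, log2 fold changes of -0.11 and -0.44) and *Foxa2* was at 0.09 (adjusted p = 0.318), and *Dab2* gave most of the sum's difference, at a mean of 446 TPM against 138. Of the 7 trophectoderm markers, 6 rose and 0 fell. *Krt18* (478 against 23.8 TPM) and *Krt8* (270 against 40.9) gave most of that sum's difference. *Cdx2* was at 2.175 TPM against 0.445, and *Tead4* was not called (log2 fold change 0.11, adjusted p = 0.166). No marker of these 3 lists was at 0 in either group. Fewer cells of a type and less RNA per cell cannot be told apart in these bulk samples, and the part of the marker shift in the members' values was not tested.

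**Figure D3:**
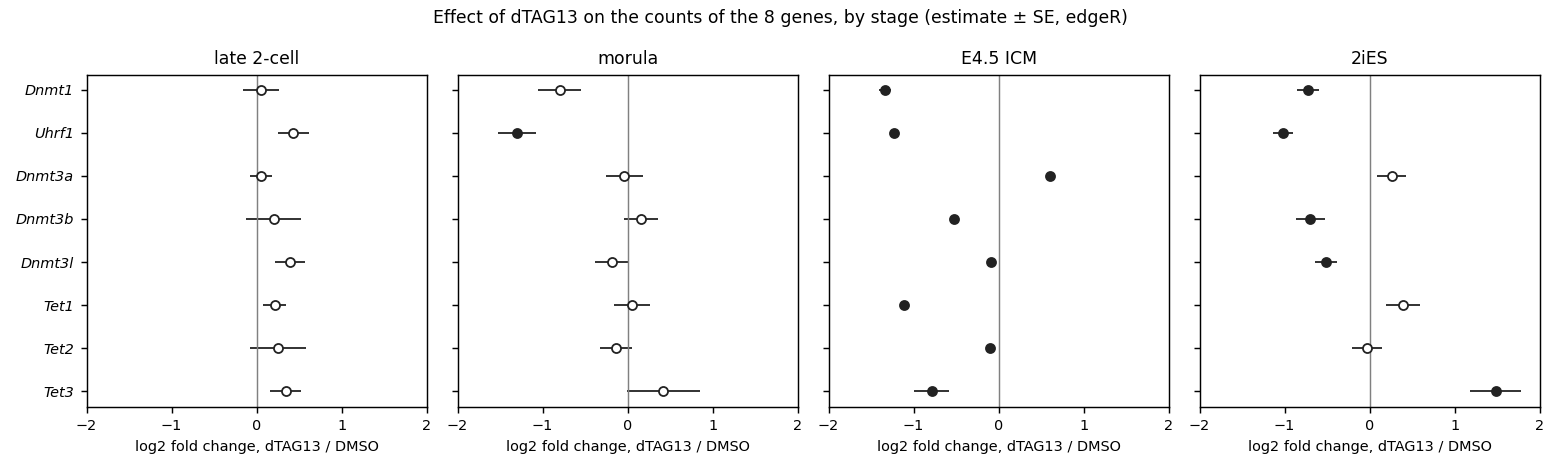
Log2 fold change (dTAG13 over DMSO, edgeR on expected counts) of the 8 genes at each stage; points are estimates, bars 1 SE, and filled points have an adjusted p under 0.05. *Uhrf1* was lower by more than 1 on this scale in morula, E4.5 ICM and 2iES (-1.30, -1.23 and -1.02), and *Tet3* lay on opposite sides of 0 in E4.5 ICM and 2iES (-0.79 and 1.48).

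In 2iES cells, 4 members fell and 1 rose, where 54.6% of all tested genes were called, and the members' median was -0.27, against 0.03 over all tested genes. *Uhrf1* was at 10.1 and 10.6 TPM with dTAG13 against 21.6 and 22.0, a log2 fold change of -1.02 ± 0.12 (SE, adjusted p = 0.00061), and was the 1 member past the study's cut-offs, as were 28% of all tested genes. *Dnmt1* was at 13.8 and 13.1 TPM against 21.6 and 21.4 (-0.73 ± 0.13, adjusted p = 0.00397). *Dnmt3b* was at 4.40 and 3.96 TPM against 6.08 and 7.84 (-0.70 ± 0.17), and *Dnmt3l* at 35.6 and 33.3 against 42.7 and 46.8 (-0.51 ± 0.13). In each of these 4 genes the dTAG13 libraries lay below both DMSO libraries. The epiblast marker sum was 322 to 347 TPM with dTAG13 against 475 to 567, with 4 of the 8 markers called lower and 0 higher. The primitive endoderm markers stood at 4.31 TPM or less in sum in both groups, and the part of the markers was not tested.

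*Tet1* did not pass the threshold in 2iES. It was at 68.3 and 61.6 TPM with dTAG13 against 40.8 and 61.5, a spread in DMSO larger than the gap between the groups (log2 fold change 0.39 ± 0.20, SE, adjusted p = 0.137). It was called higher with upper-quartile scaling (0.57, adjusted p = 0.0435) and without DMSO replicate 2 (0.70, adjusted p = 1.14e-05). *Dnmt3a* was low, at 4.40 and 5.06 TPM against 3.24 and 2.52, and did not pass on counts (0.26 ± 0.17, adjusted p = 0.234), although on log2(TPM + 1) in limma it reached 0.57 with an adjusted p of 0.048. *Tet3* rose on counts, 75 and 49 against 27 and 25 (1.48 ± 0.30, adjusted p = 0.00629), but its TPM was 0.22 and 0.18 against 0.16 and 0.32, and the log2(TPM + 1) value was -0.04. Its weighted length again stood at 10904 and 10627 bases with dTAG13, against 5425 and 2479. Without dTAG13 replicate 1, or without dTAG13 replicate 2, 2 members remained past the threshold, *Uhrf1* and *Tet3*. *Dnmt1* then had log2 fold changes of -0.67 and -0.61 (adjusted p = 0.0622 and 0.0956).

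Whether the effect differed between stages was tested on all 18 libraries, as a difference of log2 fold changes. Late 2-cell and E4.5 ICM differed in 5 of the 8 members, with 20.3% of all tested genes called. The difference was 1.64 ± 0.17 (SE) for *Uhrf1* (adjusted p = 4.16e-06), 1.36 ± 0.27 for *Dnmt1* (adjusted p = 0.0018) and 1.29 ± 0.25 for *Tet1* (adjusted p = 0.00129), all 3 lower in the E4.5 ICM, and these calls held in all 19 alternative settings run. The other 2 were *Tet3* (1.10 ± 0.34, adjusted p = 0.03) and *Dnmt3a* (-0.57 ± 0.18, adjusted p = 0.0334). *Dnmt3a* was lost in 13 of the 19 settings. Without late 2-cell dTAG13 replicate 2, E4.5 ICM DMSO replicate 2 or E4.5 ICM dTAG13 replicate 2, *Dnmt3a* and *Tet3* were both lost and 3 members remained.

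Morula and E4.5 ICM differed in *Tet1* and *Tet3*, with 16.1% of all tested genes called. *Tet1* was at 18 and 30.6 TPM with dTAG13 in morula against 23.9 and 26.8, and its difference of effects was 1.22 ± 0.27 (SE, adjusted p = 0.00491), which was lost on log2(TPM + 1) and log2(TPM + 0.1) with 1.02 and 1.06 (adjusted p = 0.0697 and 0.0775). That of *Tet3*, 1.27 ± 0.41 (adjusted p = 0.0427), was lost in 14 of 17 settings, and in 7 of the 8 that left out a library, all but the one without morula dTAG13 replicate 1. *Dnmt3a*, at -0.57 ± 0.20 (adjusted p = 0.0625), did not pass, but it did in 8 of the 17 settings. For *Uhrf1* the difference was 0.00 ± 0.14, and over the settings run it ranged from -0.20 to 0.07.

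E4.5 ICM and 2iES likewise differed in *Tet1* (-1.54 ± 0.27, adjusted p = 0.000788) and *Tet3* (-2.32 ± 0.41, adjusted p = 0.000954), with 17.4% of all tested genes called. Both calls held in all 17 settings. In counts, the response of *Tet1* in the E4.5 ICM was thus lower than at each of the other 3 stages. The differences of *Dnmt1* (-0.66 ± 0.29, adjusted p = 0.14) and *Uhrf1* (-0.26 ± 0.18, adjusted p = 0.375) did not pass.

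Genes that work beside the members were read in 6 lists of 66 genes in all. At late 2-cell, 2 of the 63 tested genes fell and none rose, beside 7.24% of all tested genes called lower and 1.32% higher. They were *Zfp445*, a zinc finger protein that protects imprints (12.5 to 8.48 TPM, log2 fold change -0.76), and *Slc25a31*, a germline ADP/ATP carrier (46.9 to 29.4 TPM, -0.74), both named after their values were seen. In morula, edgeR called 0 of 60 at an adjusted p under 0.05, with 6 at an unadjusted p under 0.05 and 2 called by DESeq2. Over all tested genes, edgeR called 0.366% there. In E4.5 ICM, 34 of 60 fell and 16 rose, beside 38.5% of all tested genes called lower and 38.4% higher. In 2iES 24 of 65 fell and 17 rose, beside 28.1% lower and 26.5% higher.

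Among the partners of maintenance and of imprint protection, 8 of 10 fell and 1 rose in E4.5 ICM (list median -0.40, all tested genes 0.01), beside 38.5% of all tested genes called lower and 38.4% higher. *Zfp57*, which binds methylated imprints, went from 64.3 to 14.6 TPM (-2.21 ± 0.05, SE). *Cdca7*, which activates the remodeller HELLS, went from 26.2 to 11.4 TPM (-1.24 ± 0.06), and *Kdm1b*, a histone demethylase needed for oocyte imprints, was at 0.975 and then 0.62 (-1.13 ± 0.22). *Dppa3*, known for keeping UHRF1 away from oocyte chromatin, rose from 1412 to 5292 TPM (1.87 ± 0.02). In 2iES 5 of 10 fell and 1 rose (list median -0.13, all tested genes 0.03), beside 28.1% of all tested genes called lower and 26.5% higher. The 1 past the study's cut-offs was *Trim28*, the corepressor that ZFP57 recruits (271 to 127 TPM, -1.17 ± 0.10).

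**Figure D4:**
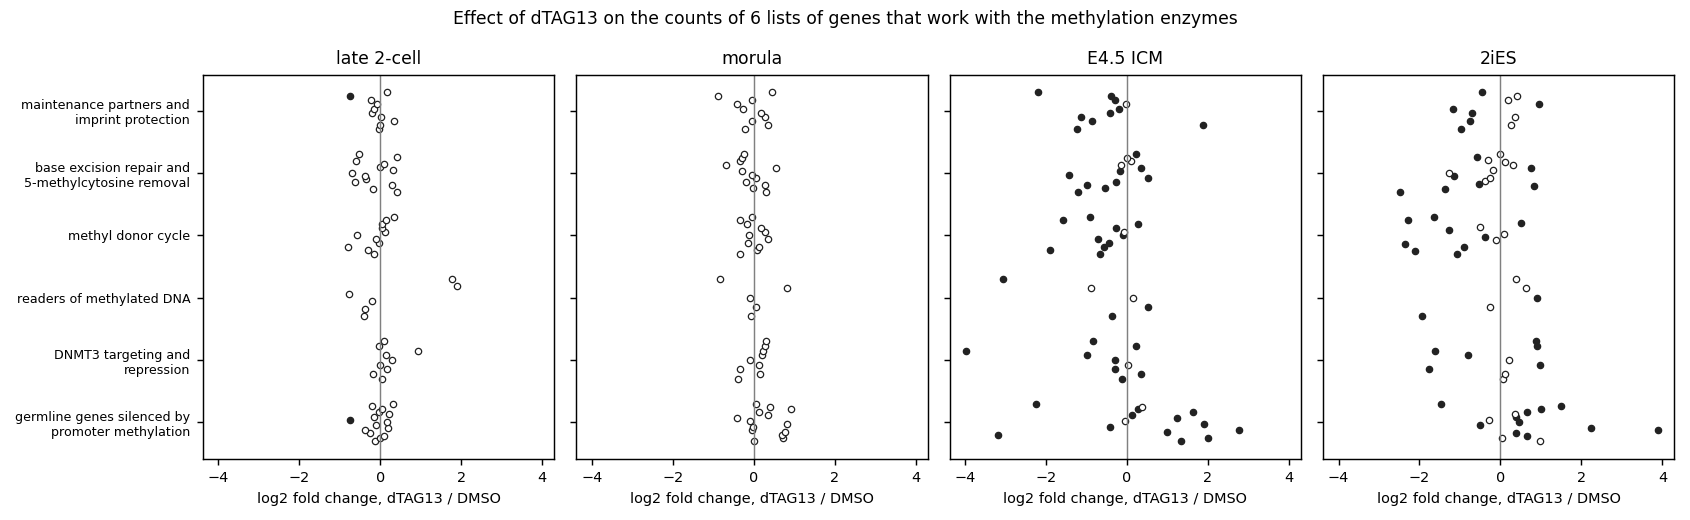
Log2 fold change (dTAG13 over DMSO, edgeR on expected counts) of each tested gene of the 6 lists at each stage; each point is 1 gene and filled points have an adjusted p under 0.05. Called genes number 2 at late 2-cell, 0 in morula, 50 in E4.5 ICM and 41 in 2iES, counting a gene on more than 1 list once. Of all tested genes, 8.56%, 0.366%, 76.9% and 54.6% were called at these stages.

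The methyl donor cycle supplies S-adenosylmethionine, the substrate of the methyltransferases. In E4.5 ICM 9 of 11 tested genes fell and 1 rose (list median -0.56), and in 2iES 8 of 12 fell and 1 rose (list median -0.99). Of all tested genes, 38.5% were called lower and 38.4% higher in E4.5 ICM, and 28.1% and 26.5% in 2iES. *Bhmt*, which makes methionine from betaine, went from 44.9 to 12.4 TPM in E4.5 ICM (-1.91 ± 0.06, SE) and from 20.8 to 4.51 in 2iES (-2.12 ± 0.22). *Shmt1*, a serine hydroxymethyltransferase, went from 56.9 to 19.5 TPM (-1.59 ± 0.05) and from 36.6 to 7.19 (-2.29 ± 0.17). In 2iES *Gnmt*, which consumes S-adenosylmethionine (2.41 to 0.46 TPM, -2.35 ± 0.48), and *Shmt2*, the mitochondrial hydroxymethyltransferase (20.3 to 6.30 TPM, -1.65 ± 0.20), were past the same cut-offs.

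Of the base excision repair genes, which finish the removal that TET enzymes begin, 6 of 12 fell and 3 rose in E4.5 ICM (list median -0.16), and 5 of 15 fell and 2 rose in 2iES (list median -0.30). The shares of all tested genes called lower and higher were 38.5% and 38.4% in E4.5 ICM, and 28.1% and 26.5% in 2iES. *Apex1*, the abasic site endonuclease, went from 349 to 154 TPM (-1.21 ± 0.03, SE) and from 499 to 181 (-1.38 ± 0.10). *Neil1*, a glycosylase, went from 3.79 to 1.44 TPM (-1.43 ± 0.22) and was 2.22-fold lower in 2iES, at 0.645 (-1.15 ± 0.29). Of the readers of methylated DNA, 2 of 5 fell and 1 rose in E4.5 ICM (list median -0.37), and 1 of 5 fell and 1 rose in 2iES (list median 0.38). The same shares of all tested genes stand beside these counts. The one that fell in 2iES was *Mbd3*, a subunit of the NuRD complex (56.8 to 14.9 TPM, -1.93 ± 0.20).

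Of the factors that direct or oppose DNMT3 enzymes, 6 of 9 fell and 2 rose in E4.5 ICM (list median -0.29), and 3 fell and 3 rose in 2iES (list median 0.12). All tested genes were called lower in 38.5% and higher in 38.4% of cases in E4.5 ICM, and in 28.1% and 26.5% in 2iES. *Prdm14*, known for repressing *Dnmt3b* and *Dnmt3l* in naive cells, went from 12.4 to 0.80 TPM in E4.5 ICM (-3.99 ± 0.13, SE) and from 2.27 to 0.70 in 2iES (-1.62 ± 0.22). *Ehmt2*, the H3K9 methyltransferase G9a, went from 12.3 to 3.62 TPM in 2iES (-1.77 ± 0.18).

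Germline genes whose promoters are classically kept silent by methylation formed the last list. In E4.5 ICM 9 of 14 tested rose and 3 fell (list median 0.67), beside 38.4% of all tested genes called higher and 38.5% lower. In 2iES 9 of 15 rose and 2 fell (list median 0.45), beside 26.5% higher and 28.1% lower. The part of the marker shift in these values was not tested. *Dpep3*, a testis dipeptidase, went from 0.64 to 4.49 TPM in E4.5 ICM (2.77 ± 0.24, SE) and from 0.20 to 2.85 in 2iES (3.90 ± 0.30). *Brdt*, a testis bromodomain protein, went from 1.64 to 6.43 TPM in E4.5 ICM (2.01 ± 0.16). In 2iES *Hormad1*, a protein of meiotic chromosome axes, went from 26.9 to 120 TPM (2.23 ± 0.11), and *Tex101*, a germ cell surface protein, from 2.58 to 6.83 (1.49 ± 0.20). *Dazl*, a germ cell RNA-binding protein, fell from 19.9 to 2.99 TPM in E4.5 ICM (-3.18 ± 0.11), and *Tuba3a*, a testis tubulin, fell at both stages (-2.26 ± 0.08 and -1.46 ± 0.25). DNA methylation was not measured in these libraries.

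For each member, the genes with the most similar course were those with the highest Pearson correlation of log2(TPM + 1) over the 18 libraries, among 9381 genes. The libraries share stages and treatments, so these values are descriptions. *Dnmt3b* was closest to *Adpgk* (r = 0.987), *Dnmt3a* to *Gtf3c2* (0.983), *Dnmt3l* to *Fam129a* (0.983), *Tet2* to *Jarid2* (0.984), *Uhrf1* to *Tsta3* (0.957) and *Tet3* to *Gm48388* (0.993). *Dnmt1* and *Tet1* had less close matches, *Ebpl* at 0.915 and *Fundc2* at 0.899, and *Hells*, a chromatin remodeller that maintenance methylation needs, was the third for *Dnmt1* (0.867). Between members, *Dnmt3b* and *Dnmt3l* were closest (0.936) and *Tet2* and *Tet3* farthest apart (-0.877), while *Dnmt1* and *Uhrf1* were at 0.436.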

How the data were processed

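RNA was amplified with SMART-Seq v4 and made into libraries with Nextera XT, which keeps no strand. The authors ran Trimmomatic 0.39 on the reads, mapped these with STAR to the GRCm38 assembly, and estimated gene abundance in RSEM. The deposited expected counts are RSEM estimates per gene, and the deposited TPM and FPKM values are the authors' normalizations of them by library and by weighted transcript length. Here expected counts were rounded and tested with edgeR 4.0.16 (quasi-likelihood, TMM scaling, R 4.3.3) on genes with at least 10 counts in as many libraries as the smallest group, with Benjamini-Hochberg adjustment over all tested genes and a threshold of 0.05. SE is the fold change divided by the square root of F. Degradation effects were fitted within each stage, control stages on 9 DMSO libraries, and differences of effects on all 18. TPM served for levels and FPKM for the cut-off of 1.

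DESeq2 1.42.0, limma 3.58.1 (also on log2(TPM + 1) and log2(TPM + 0.1)), other scalings, no filter, a replicate block and each library left out were the alternatives. The members and gene lists were chosen with earlier results of these data known. Genes named from the lists passed the adjusted p, a fold of 2 and a mean FPKM of 1, at most 4 per list and stage. The exceptions are *Zfp445* and *Slc25a31* at late 2-cell, which passed the adjusted p but not the fold of 2. Likeness was read for the closest 3 genes among those with at least 10 TPM in 1 group. *Elf5* of the trophectoderm list was not analysed here. Chromatin libraries of the series were not used here.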

Additional observations from a re-analysis of the deposited data

Results flagged for a closer look

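The effect of dTAG13 differed between stages for 5 members, by the test of the difference of log2 fold changes over 18 libraries. Between late 2-cell and E4.5 ICM the difference was 1.64 for *Uhrf1*, 1.36 for *Dnmt1*, 1.29 for *Tet1*, 1.10 for *Tet3* and -0.57 for *Dnmt3a*. Between morula and E4.5 ICM it was 1.22 for *Tet1* and 1.27 for *Tet3*. Between E4.5 ICM and 2iES it was -1.54 for *Tet1* and -2.32 for *Tet3*. The *Tet3* values rest on 25 to 117 expected counts per library outside late 2-cell, and on log2(TPM + 1) the difference between E4.5 ICM and 2iES was -0.90 (adjusted p = 0.00691). Doses and hours of treatment also differed between stages, and their part cannot be told apart from the stage. Groups held 2 or 3 libraries, so single libraries that stand apart were not searched for.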

How the results depend on the processing

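Counts of members called with dTAG13 changed by over 1.5 times as follows. With all 18 libraries in 1 fit, 1 member was called at late 2-cell in place of 0 and 5 in E4.5 ICM in place of 8. On log2(TPM + 1) and on log2(TPM + 0.1), 0 were called in morula in place of 1. Leaving out each library gave 0 to 1 in morula, 6 to 8 in E4.5 ICM and 2 to 7 in 2iES. For the differences of effects, it gave 3 to 5 between late 2-cell and E4.5 ICM and 1 to 2 between morula and E4.5 ICM. The latter count of 2 was also 1 without a filter on low counts, and the count of 2 between E4.5 ICM and 2iES was 4 by voom with group weights. The 3 counts between DMSO groups stayed within 1.5 times. The cause was not tested. Among called values, signs turned or reached 0.00 in E4.5 ICM for *Dnmt3l* (0.02 with upper-quartile scaling and 0.00 on both TPM scales) and *Tet2* (0.00 with upper-quartile scaling, 0.10 on both TPM scales, and -0.17 to 0.00 with a library left out, the latter without dTAG13 replicate 1), and in 2iES for *Tet3* on TPM (-0.04 and -0.14) and *Tet2* (-0.29 to 0.20 with a library left out, the latter without DMSO replicate 2). Among single genes over all comparisons, 1091 values stayed on their side of the threshold with no called value changing sign, 55 lost a call and 44 gained one. Values that did not pass could change sign.

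Upper-quartile scaling moved the median of all genes by 0.12 at late 2-cell, by 0.18 in 2iES and by 0.16 between late 2-cell and morula, and library totals moved it by -0.33 between E4.5 ICM and 2iES. The share of calls that were lower was 84.6% at late 2-cell and 66.5% with upper-quartile scaling, and 56% in morula and 68.8% with library totals. All genes called in morula numbered 9 to 702 over the alternatives, against 50.

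Replicate numbers recur across groups, but nothing states that they pair samples. Same-numbered deviations correlated at 0.08, 0.12 and 0.17 at late 2-cell, where each library was closest to its own number, at 0.02 in morula and E4.5 ICM and at -0.20 in 2iES. With the number as a replicate block, 1 member in place of 2 differed between morula and E4.5 ICM (*Tet3*, adjusted p = 0.0533), and the other counts did not change.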
